A study of Mus musculus with 16 samples.

Results

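The genes of tau, of 3 other microtubule-associated proteins, of the neurofilament subunits and of stathmin-2 are described here across the cortex and striatum of R6/2 and non-transgenic (NT) mice. The 9 genes are Mapt, Map2, Map4, Map7d2, Nefl, Nefm, Nefh, Ina and Stmn2, of 23724 genes with reads, and they were chosen by name. They had 1252 of the 815498 isoform entries of the series, and 922 of these entries held reads of the classes counted here. R6/2 mice carry a transgene with the first exon of human mutant HTT and are a model of Huntington's disease. Male mice aged 3 months were used, and each of the 4 groups (cortex NT, cortex R6/2, striatum NT and striatum R6/2) had 4 samples, 16 in all. RNA was read by PacBio Iso-seq, in which a cDNA molecule is sequenced from end to end, so that 1 read shows which exons were joined in 1 molecule. The transgene itself was not measured here.

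Neurofilaments are the intermediate filaments of axons, and they set axon calibre. They are built from a light (Nefl), a medium (Nefm) and a heavy chain (Nefh) together with alpha-internexin (Ina). Tau (Mapt) binds microtubules along axons, Map2 does so in dendrites and cell bodies, Map4 is the form found in most cell types, and Map7d2 is a neuronal member of the MAP7 family, which works with kinesin-1. Stathmin-2 (Stmn2) binds tubulin and serves axon growth and repair. Tau is made in several forms by alternative splicing, and a pair of exons near the start of the coding sequence add inserts to the projecting part of the protein.

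The sequences below are from GENCODE M21 transcripts (mm10). The coding starts of Nefl and Ina are shown because each neurofilament gene was read mostly as 1 isoform, whose start of translation these bases mark for this pair, with the start codon in capitals. Nefl lies at chr14:68083863-68089095 (+) and Nefm at chr14:68082590-68124846 (-), so that the annotated spans of both genes overlap on opposite strands. The Nefm isoform that was read spans chr14:68119283-68124846 and does not overlap Nefl. Nefh lies at chr11:4938754-4948064 (-) and Ina at chr19:47014698-47025327 (+).
Nefl, first 60 coding bases, chr14:68083963-68084022 (+): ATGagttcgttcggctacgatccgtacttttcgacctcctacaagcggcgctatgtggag
Ina, first 60 coding bases, chr19:47014755-47014814 (+): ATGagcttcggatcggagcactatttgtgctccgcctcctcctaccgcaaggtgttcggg

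The tau exons are shown because they separate the isoforms counted below. Mapt lies at chr11:104231390-104332090 (+). Both insert exons are 87 nt long and stand in the isoform of 12 exons, while the isoform of 10 exons joins past them. The junction is given as 30 bases on each side of the join, with the 3 bases next to it on either side in capitals.
Mapt, insert exon 1, chr11:104287123-104287209 (+): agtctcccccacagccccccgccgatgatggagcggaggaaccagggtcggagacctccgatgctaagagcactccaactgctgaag
Mapt, insert exon 2, chr11:104289908-104289994 (+): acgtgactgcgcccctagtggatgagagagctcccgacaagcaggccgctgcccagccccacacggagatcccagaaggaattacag
Mapt, junction of the isoform without them: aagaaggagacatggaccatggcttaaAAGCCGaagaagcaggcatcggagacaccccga

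Cortical samples held 252885 to 808814 reads and striatal samples 317050 to 1496196. Reads had been assigned by TALON to isoforms that match an annotated transcript (known), match only part of its splice junctions (ISM), combine known splice sites as no annotated transcript does (NIC) or use an unannotated site (NNC). Gene reads are the sum of these classes, complete reads are those other than ISM, and levels are given as CPM, the gene reads per 1000000 reads of the library after TMM normalization, with no division by transcript length. In 4 striatal samples, NT 1, NT 2, R6/2 2 and R6/2 3, 2 sets of counts were summed. Their reads were assigned to isoforms of 2141 to 2225 nt on average, against 1618 to 1885 nt in the other striatal samples. The number of sets was therefore a term in striatal models. The summed level of 7 marker genes of striatal projection neurons was at least 1106 CPM in every striatal sample and at most 302 CPM in every cortical one, as the tissue labels have it. In such tissue samples, fewer cells of a type and less RNA per cell cannot be told apart. The labels number the samples of a group and do not say more of their origin, so p-values measure the spread between these samples, part of which may be technical.

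In the cortex, the transcripts of the 3 neurofilament chains were lower in R6/2 than in NT mice. Nefl, Nefm and Nefh passed the test and fell by 0.91, 1.13 and 1.13 on the log2 scale. None of the other 6 genes passed. Over all genes tested in the cortex, 3.23% were called and 2.77% were called lower, beside 3 of these 9 genes, all lower.

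Nefl, the subunit on which the others assemble, was read at 3549, 2772, 3535 and 2565 CPM in the 4 NT cortices and at 1471, 1530, 1553 and 1990 CPM in the 4 R6/2 cortices. The groups did not overlap, although R6/2 4 stood above the other R6/2 samples. The fold was 0.534 (log2 fold change -0.91, SE 0.19, edgeR quasi-likelihood test with Benjamini-Hochberg adjustment, adjusted p = 0.0084). Nefm was at 1174, 1353, 1763 and 1135 CPM in NT and at 578, 605, 595 and 669 CPM in R6/2 cortices. The R6/2 values lay close together and all below the NT values, at a fold of 0.458 (log2 fold change -1.13, SE 0.19, edgeR adjusted p = 0.0018). Nefh, whose long tail is phosphorylated in mature axons, had 286, 188, 239 and 162 CPM in NT and 98.7, 106, 84.4 and 103 CPM in R6/2 cortices. These groups also did not overlap, and the fold was 0.457 (log2 fold change -1.13, SE 0.20, edgeR adjusted p = 0.0021). Each of the 3 was called in each of the 15 alternative settings tried for the cortex, with adjusted p up to 0.049 for Nefl, 0.014 for Nefm and 0.019 for Nefh. Ina, the subunit that appears early in development, did not pass: it was at 382 ± 87.6 CPM (SD, n = 4) in NT and 305 ± 22.0 CPM in R6/2 cortices, with overlapping groups (log2 fold change -0.32, SE 0.20, edgeR adjusted p = 0.42).

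In the striatum, Nefm was lower in R6/2 mice by a factor of 3.06, and none of the other 8 genes passed the test. Over all genes tested in the striatum, 4.13% were called and 3.64% were called lower. Nefm was read at 801, 1150, 568 and 407 CPM in the 4 NT striata and at 177, 262, 329 and 176 CPM in the 4 R6/2 striata. Every R6/2 value lay below every NT value, at a fold of 0.327 (log2 fold change -1.61, SE 0.20, edgeR adjusted p = 4.4e-04). Samples with 2 sets of counts had the higher Nefm values within each genotype, and the ratio of the R6/2 to the NT mean was 0.303 among them and 0.362 among samples with 1 set. Without a term for the number of sets the size was the same but the call was lost (log2 fold change -1.64, edgeR adjusted p = 0.073, with 39 genes called in place of 337), as it was with only the first set of counts (-1.56, edgeR adjusted p = 0.14). With the term, leaving out any 1 sample kept the call.

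Nefl in the striatum was at 1439, 1939, 858 and 601 CPM in NT and at 786, 1027, 1190 and 672 CPM in R6/2 mice. The groups overlapped, and the samples with 2 sets stood above the others in both genotypes (log2 fold change -0.32, SE 0.21, edgeR adjusted p = 0.49). Among samples with 2 sets the ratio of the R6/2 to the NT mean of Nefl was 0.656, and among samples with 1 set it was 0.998. Nefh was at 60.9 ± 23.7 CPM (SD, n = 4) in NT and 42.9 ± 13.0 CPM in R6/2 mice (log2 fold change -0.51, SE 0.22, edgeR adjusted p = 0.26). Ina was at 182 ± 72.9 and 174 ± 48.8 CPM (log2 fold change -0.07, SE 0.16, edgeR adjusted p = 0.91). Whether the genotype difference itself differed between regions was tested as an interaction of region and genotype, in which 3 of 7713 genes were called (0.0389%) and 442 had an unadjusted p under 0.05. None of the 9 genes was among those called, while Nefl and Nefh were among those with an unadjusted p under 0.05. The log2 difference of the fold changes, striatum minus cortex, was 0.61 for Nefl (SE 0.27, edgeR adjusted p = 0.86), 0.64 for Nefh (SE 0.30, adjusted p = 0.86) and -0.46 for Nefm (SE 0.27, adjusted p = 0.87). The fall of Nefl and Nefh in the cortex was thus not shown to differ from their values in the striatum.

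**Figure D1:**
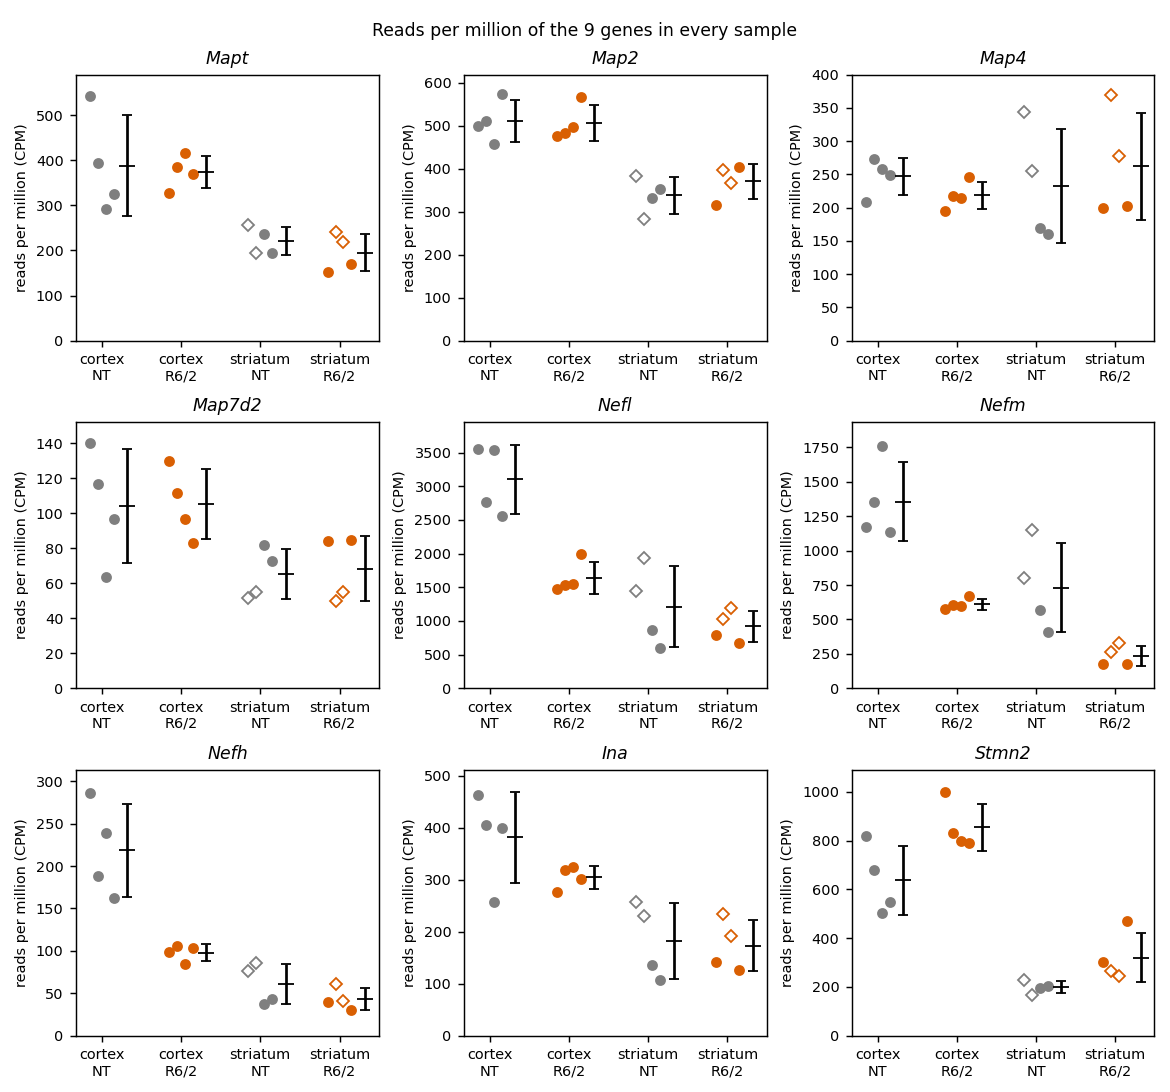
Level (CPM, linear axes from 0) of the 9 genes in every sample, by region and genotype. Filled circles are samples with 1 set of counts, open diamonds samples with 2 sets, and black bars the mean ± SD of 4 samples. In the cortex the R6/2 samples of Nefl, Nefm and Nefh lie below all NT samples, as do those of Nefm in the striatum, where Nefm ranges from 176 to 329 CPM in R6/2 and from 407 to 1150 CPM in NT mice.

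Because a sample's 4 subunits are counted in the same library, their shares of the summed neurofilament reads do not depend on depth. In the striatum the make-up of these reads differed between genotypes: Nefm was a smaller and Nefl and Ina a larger share in every R6/2 sample than in every NT sample. In the cortex, where the 3 chains were lower together, the share of Ina was the one whose groups did not overlap.

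The share of Nefm in the striatum was 31.1%, 33.8%, 35.5% and 35.1% in NT and 15.5%, 16.5%, 18.8% and 17.5% in R6/2 mice. Its mean was 33.9% ± 2.00 (SD, n = 4) in NT and 17.1% ± 1.41 in R6/2 mice, a difference of -16.8 percentage points (two-sided exact permutation test, p = 0.029). The share of Nefl was 54.6% ± 2.27 and 67.1% ± 1.68 (exact permutation test, p = 0.029) and that of Ina 8.61% ± 1.39 and 12.7% ± 1.59 (exact permutation test, p = 0.029). Each of these differences exceeded the spread between the samples of a group. Nefh held 2.90% ± 0.633 in NT and 3.16% ± 0.653 in R6/2 mice (exact permutation test, p = 0.57). In the cortex, Ina held 7.73% ± 2.22 in NT and 11.6% ± 1.31 in R6/2 mice (exact permutation test, p = 0.029). Nefm held 26.8% ± 3.89 and 23.1% ± 0.907 there (exact permutation test, p = 0.14) and Nefl 61.2% ± 2.61 and 61.5% ± 2.33 (exact permutation test, p = 0.80). A p of 0.029 is the smallest that 4 against 4 samples can give, and over the 8 shares compared it became 0.057 with Benjamini-Hochberg adjustment, above the threshold of 0.05. Within samples of the same number of sets, whose 36 arrangements allow no p under 0.056, the striatal shares of Nefl, Nefm and Ina had that p. The shares of a sample sum to 100%, so they do not move independently. Without cortex NT 1 the cortical groups of Nefm no longer overlapped (-5.43 percentage points).

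Put as a ratio, 0.556, 0.593, 0.661 and 0.677 Nefm reads were counted per Nefl read in the NT striata and 0.226, 0.255, 0.276 and 0.262 in the R6/2 striata. In the cortex the ratio was 0.440 ± 0.0768 (SD, n = 4) for NT and 0.377 ± 0.0277 for R6/2 mice, with overlapping groups. The NT striatum thus had the highest and the R6/2 striatum the lowest values of the 4 groups, and no sample of either overlapped with any other group. The difference between regions in the genotype effect on the share was 12.1 percentage points for Nefl and -13.1 for Nefm, striatum minus cortex (two-sided exact permutation test of the region labels within genotype, after each region's mean was removed, over 4900 arrangements, p = 4.1e-04 for both, the smallest they can give, and 8.2e-04 adjusted over the 4 subunits). It was 0.82 for Nefh and 0.21 for Ina (adjusted p = 0.24 and 0.90, exact permutation test). This test was chosen after the shares were seen. It took cortical and striatal samples as unpaired and did not account for the number of sets, which varied in the striatum only.

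**Figure D2:**
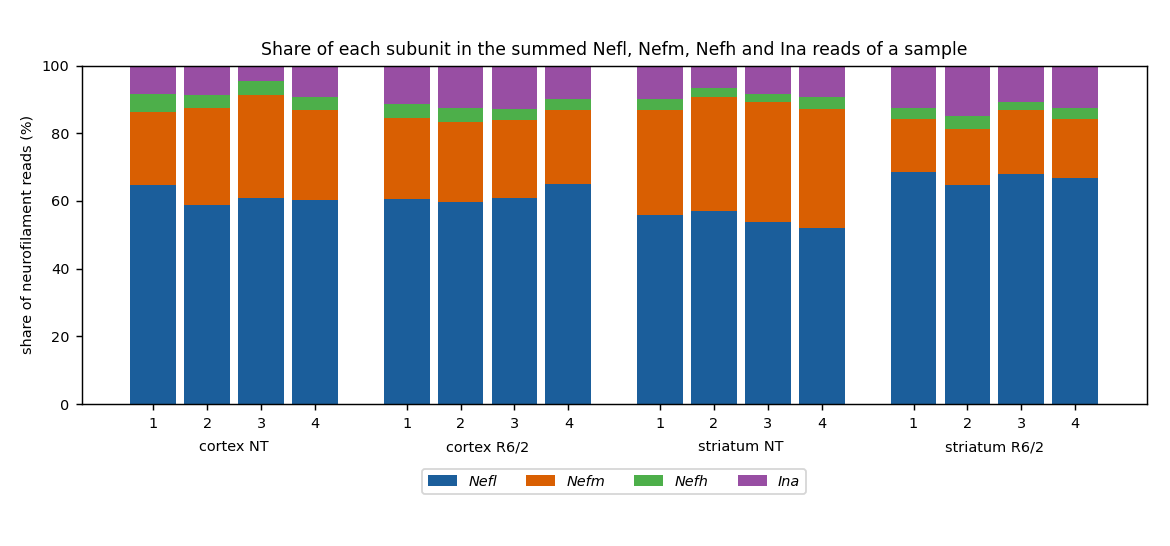
Share of Nefl, Nefm, Nefh and Ina (percent, stacked to 100) in the summed reads of these genes, 1 bar per sample, numbered by replicate within the 4 groups. The band of Nefm lies between 31.1% and 35.5% in the striatum of NT mice and between 15.5% and 18.8% in that of R6/2 mice.

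Mapt, Map2, Map4 and Map7d2, the genes of the microtubule-associated proteins, did not pass the test between genotypes in either region or in any alternative setting, and the smallest unadjusted p among them was 0.272 (edgeR). Mapt was at 388 ± 111 CPM (SD, n = 4) in NT and 374 ± 36.4 CPM in R6/2 cortices (log2 fold change -0.04, SE 0.20, edgeR adjusted p = 0.95). In the striatum it was at 220 ± 31.4 and 195 ± 41.2 CPM (log2 fold change -0.19, SE 0.17, edgeR adjusted p = 0.63). Map2 was at 511 ± 48.6 and 507 ± 41.7 CPM in the cortex and at 338 ± 43.1 and 371 ± 40.4 CPM in the striatum, with edgeR adjusted p of 0.999 and 0.75. Map4 was at 247 ± 27.7 and 218 ± 20.8 CPM in the cortex (edgeR adjusted p = 0.68) and at 232 ± 85.8 and 262 ± 80.5 CPM in the striatum (adjusted p = 0.64). The wide spread of Map4 in the striatum followed the number of sets, with 160 to 202 CPM in samples of 1 set and 256 to 370 CPM in samples of 2. Map7d2, the least read of the 4, was at 104 ± 32.6 and 105 ± 20.2 CPM in the cortex and at 65.3 ± 14.3 and 68.3 ± 18.6 CPM in the striatum (edgeR adjusted p = 0.99 and 0.999). Its striatal values followed the number of sets the other way, with 72.7 to 84.5 CPM in samples of 1 set and 49.7 to 55.1 CPM in samples of 2.

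Stmn2 had higher mean values in R6/2 than in NT mice in both regions, but the differences did not pass the test. In the striatum it was at 228, 167, 195 and 204 CPM in NT and at 301, 265, 247 and 470 CPM in R6/2 mice. The groups did not overlap, and R6/2 4 was the highest (log2 fold change 0.65, SE 0.19, edgeR adjusted p = 0.084). The ratio of the R6/2 to the NT mean was 1.93 among samples with 1 set, which include R6/2 4, and 1.30 among samples with 2 sets. Over the 19 alternative settings its adjusted p lay between 0.028 and 0.61, and it was under 0.05 in 3, which were no filter on low counts, the genomic class added and the fit without NT 1 (0.79, edgeR adjusted p = 0.042). In the cortex Stmn2 was at 818, 681, 502 and 550 CPM in NT and at 998, 833, 797 and 788 CPM in R6/2 mice. There NT 1 lay above 2 of the R6/2 samples (log2 fold change 0.44, SE 0.20, edgeR adjusted p = 0.27).

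**Figure D3:**
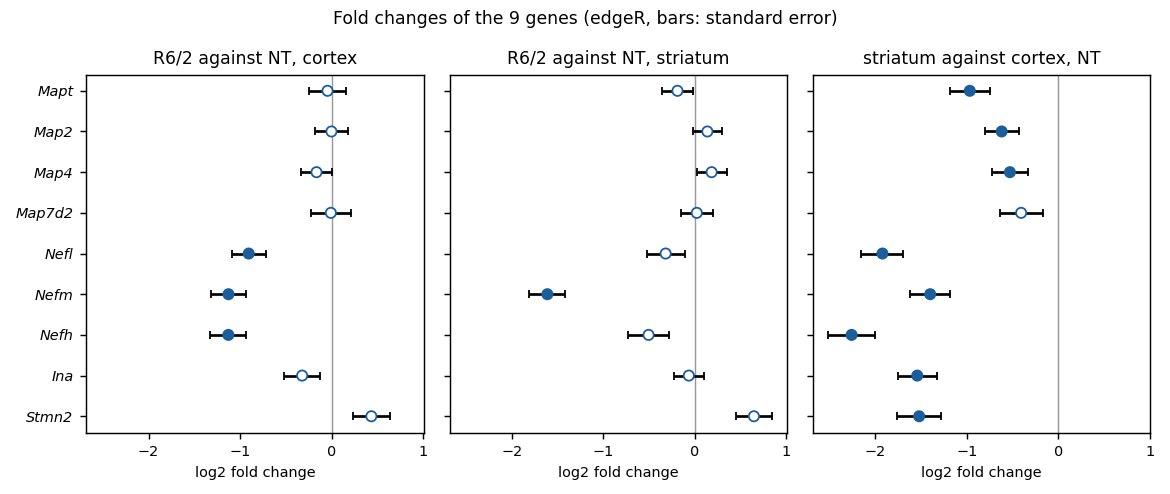
Log2 fold changes (x axis) of the 9 genes for R6/2 against NT in the cortex, R6/2 against NT in the striatum, and striatum against cortex in NT mice, from edgeR, with bars of 1 standard error. Filled points have an adjusted p under 0.05: Nefl, Nefm and Nefh in the first panel, Nefm in the second, and all genes but Map7d2 in the third.

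Most of these genes were read less in the striatum than in the cortex. In NT mice, 8 of the 9 were called lower in the striatum, beside 32.6% of all genes called and 17.2% called lower. The largest differences were those of Nefh (log2 fold change -2.26, edgeR adjusted p = 7.1e-07), Nefl (-1.92, 1.3e-06), Ina (-1.54, 7.8e-06), Stmn2 (-1.52, 3.6e-05) and Nefm (-1.40, 3.3e-05). Mapt (-0.97, edgeR adjusted p = 0.0016), Map2 (-0.62, 0.014) and Map4 (-0.53, 0.038) differed less, and Map7d2 was not called (-0.41, 0.20). The median of all genes lay at -0.12 in this comparison. The term for the number of sets puts the striatal samples at the level of 1 set. Without it the 4 neurofilament genes and Stmn2 were still called, at -1.77 for Nefh, -1.36 for Nefl, -0.88 for Nefm, -1.05 for Ina and -1.69 for Stmn2, but Map4 was at -0.07 (edgeR adjusted p = 0.89), and Map4 was called in 5 of 23 alternative settings. With ISM isoforms left out Mapt was not called (-0.66, edgeR adjusted p = 0.061). Neither was Map2 in that setting (-0.32, edgeR adjusted p = 0.31), without a filter on low counts (-0.49, 0.21), without cortex NT 1 (-0.41, 0.099) or without cortex NT 4 (-0.34, 0.22).

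In R6/2 mice, 6 of the 9 genes were called lower in the striatum, beside 26.6% of all genes called and 14.1% called lower. Nefm had the largest difference there (-1.86, edgeR adjusted p = 2.9e-06), followed by Nefh (-1.62), Nefl (-1.32), Stmn2 (-1.29), Ina (-1.27) and Mapt (-1.10). This order is for striatal samples put at the level of 1 set, and the comparison was not fitted without the term for sets. Map2 (-0.47, edgeR adjusted p = 0.062), Map4 and Map7d2 were not called. Ranked by mean CPM, Nefl, Nefh, Ina and Mapt were highest in cortex NT, followed by cortex R6/2, striatum NT and striatum R6/2. Of Nefl and Nefh only cortex NT stood apart from its neighbour in this order, and of Ina and Mapt only cortex R6/2 stood apart from the next group, striatum NT, although the Ina values of cortex NT and striatum NT overlapped. Stmn2 was highest in cortex R6/2, then cortex NT, striatum R6/2 and striatum NT, with overlap between the cortical groups alone. For Nefm the order was cortex NT, striatum NT, cortex R6/2 and striatum R6/2, where only the last was apart from its neighbour. Map2 overlapped between genotypes but not between regions. For Map4 and Map7d2 the ranges of all neighbours in the order overlapped.

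The genes differed in the structure of their reads. Nefl, Nefm, Nefh, Ina and Stmn2 were each read mostly as 1 known isoform, which held at least 95.6% of complete reads on average in every group. The reads of Map2, Map4 and Map7d2 were mostly or largely ISM reads, which cover part of an annotated transcript, and Mapt lay between.

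Nefl was read as ENSMUST00000022639 (4 exons, 3380 nt), Nefm as ENSMUST00000022638 (3 exons, 3334 nt), Nefh as ENSMUST00000093369 (4 exons, 3994 nt), Ina as ENSMUST00000037636 (3 exons, 3240 nt) and Stmn2 as ENSMUST00000029002 (5 exons, 2073 nt). For Nefm this isoform made up 98.7% ± 0.324 of complete reads in cortex NT, 98.8% ± 0.859 in cortex R6/2, 99.2% ± 0.556 in striatum NT and 99.5% ± 0.427 in striatum R6/2 (SD, n = 4). ISM reads were 1.33% to 1.90% of Nefm reads on average. The lower number of Nefm reads in R6/2 mice was thus a lower number of reads of the known isoform, 1295 against 1948 in the cortex and 758 against 2511 in the striatum, before scaling to depth. Of Nefl, 9.98% to 18.9% of reads were ISM on average. The main ISM isoform, of 3 exons and 1592 nt, keeps the start of the transcript and had 13.2% ± 3.51 of gene reads in cortex NT, 13.6% ± 1.68 in cortex R6/2, 6.23% ± 2.98 in striatum NT and 3.10% ± 0.411 in striatum R6/2. Of Stmn2, an ISM isoform of 1 exon and 71 nt held 9.03% ± 4.86 of gene reads in cortex NT and 13.2% ± 2.52 in cortex R6/2, but 0.531% ± 0.783 and 1.21% ± 1.45 in the striatum. It had 105 and 249 reads in cortex NT and R6/2 against 4 and 12 in the striatum.

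**Figure D4:**
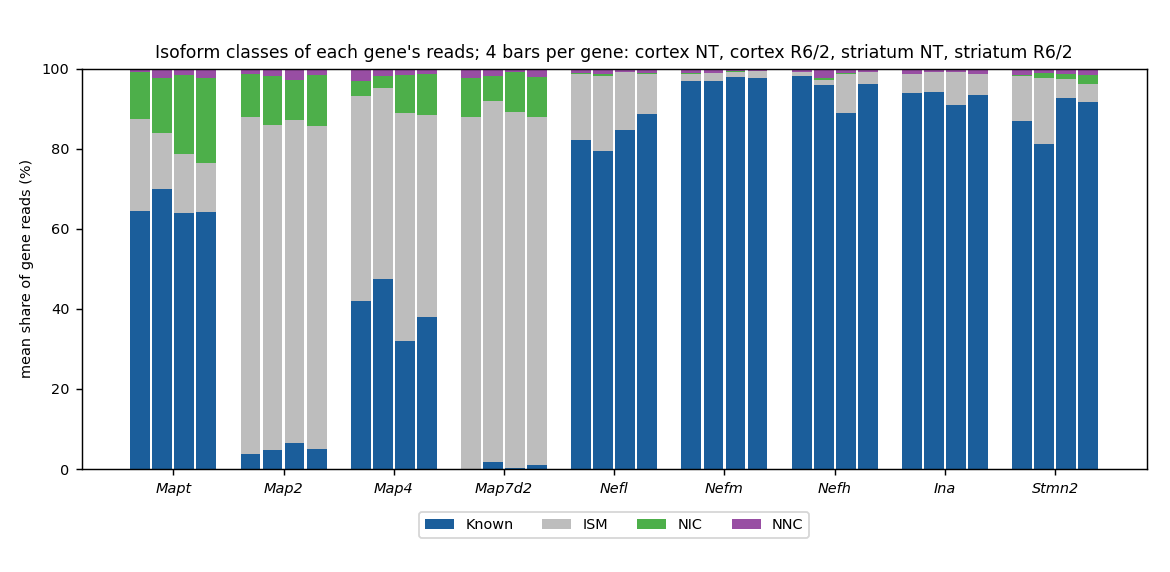
Mean share (percent of gene reads) of known, ISM, NIC and NNC reads for each gene, with 4 bars per gene in the order cortex NT, cortex R6/2, striatum NT and striatum R6/2 (means of 4 samples). Map2 and Map7d2 are mostly ISM (80.7% to 84.3% and 86.9% to 90.2%), Nefm, Nefh and Ina mostly known.

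Of Mapt, the isoform without the insert exons was the main one in every group. Its share averaged less in the striatum of both genotypes than in the cortex. In NT mice the regions overlapped in this share, and the usage of Mapt isoforms was not called between regions (edgeR diffSpliceDGE, Simes adjusted p = 1). In R6/2 mice it was 68.5% to 74.5% in the cortex and 51.2% to 64.9% in the striatum, without overlap. Usage between regions was not tested in R6/2 mice. How many isoforms of all genes separate between regions in this way was not counted, so these values are a description only. ENSMUST00000106992 (10 exons, 5253 nt) held 73.4% ± 5.38 of complete reads in cortex NT, 71.3% ± 3.12 in cortex R6/2, 59.1% ± 7.16 in striatum NT and 57.7% ± 6.05 in striatum R6/2 (SD, n = 4). ENSMUST00000100347 (12 exons, 1362 nt), with both insert exons, held 8.90% ± 4.27, 9.69% ± 4.11, 11.8% ± 3.64 and 14.4% ± 2.52 in the same order. An NIC isoform of 11 exons and 1491 nt held 7.66% to 8.74% on average. A pair of other NIC isoforms of 11 exons, 2163 and 2115 nt long, held 6.25% and 5.54% of the pooled reads of striatum R6/2 and under 5% in the other groups. Which exons an NIC isoform holds is not given in the tables used, so these reads could not be placed with regard to the inserts.

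Among reads of known Mapt isoforms that reach across the inserts, 12.5%, 15.3%, 3.45% and 11.1% included them in NT cortices and 17.9%, 6.90%, 10.9% and 11.5% in R6/2 cortices. In the striatum these values were 22.6%, 12.4%, 14.8% and 15.0% in NT and 19.7%, 20.3%, 17.6% and 20.8% in R6/2 mice. The groups overlapped in both regions, and NT cortex 3 had the lowest value of all samples. Of the known isoforms with reads, 1 holds the insert exons and it holds both, so the choice of reads gave them 1 value, with 51 including and 363 skipping reads in cortex NT and 75 and 313 in striatum R6/2. Inclusion was 10.6% ± 5.08 and 11.8% ± 4.55 in the cortex (edgeR diffSpliceDGE, adjusted p = 0.97) and 16.2% ± 4.43 and 19.6% ± 1.40 in the striatum (adjusted p = 0.85; SD, n = 4), beside 0.447% of 671 annotated cassette exons called for the cortex and 2.0% of 1000 for the striatum.

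**Figure D5:**
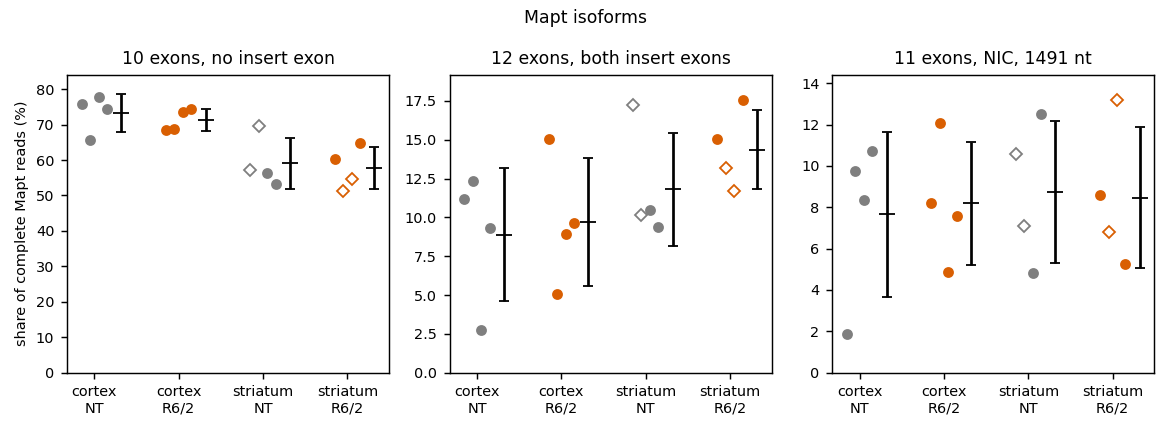
Share (percent of complete Mapt reads, linear axes from 0) of the 3 main Mapt isoforms in every sample, with the mean ± SD of 4 samples in black; filled circles are samples with 1 set of counts and open diamonds samples with 2 sets. The isoform without the insert exons averages 73.4% and 71.3% in the cortex and 59.1% and 57.7% in the striatum, and NT and R6/2 samples overlap in every panel.

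Few reads of Map4, Map2 and Map7d2 matched annotated isoforms of 15 exons or more. The known Map4 isoform ENSMUST00000169851 (4 exons, 3446 nt), whose coding part is annotated at 297 nt, held 85.5% ± 5.47 of complete reads in cortex NT, 90.1% ± 3.29 in cortex R6/2, 68.9% ± 11.5 in striatum NT and 74.8% ± 6.03 in striatum R6/2 (SD, n = 4). The isoform of 19 exons (ENSMUST00000165876, 5573 nt, coding length 3372 nt) had 2 reads in all 16 samples. ISM reads were 47.7% to 57.1% of Map4 reads on average. Those that keep only the transcript end were 18.8% ± 4.70 of gene reads in cortex NT and 9.79% ± 3.31 in cortex R6/2, and averaged 20.7% ± 7.54 in striatum NT and 10.99% ± 2.31 in striatum R6/2. In the cortex these values did not overlap between genotypes (at least 14.0% in NT and at most 13.1% in R6/2), while in the striatum NT 4 lay within the R6/2 range. Map4 was 1 of 9 genes whose cortical groups did not overlap in this share, beside 3.1% of all genes. The share was looked at after the values were seen. Other kinds of read separated in the cortex for other members. ISM reads that keep only the transcript start were at most 53.0% of Map2 reads in NT and at least 56.3% in R6/2 cortices. For Map7d2 they were at least 46.2% in NT and at most 44.3% in R6/2 cortices. Map7d2 reads of at least 8 exons were at least 28.8% in NT and at most 27.1% in R6/2 cortices. For these kinds the share of all genes without overlap was not counted. Of Map2, 80.7% to 84.3% of reads were ISM on average, led by a form of 7 exons and 1117 nt that keeps the transcript start and held 22.7% ± 2.72 of gene reads in cortex NT and 26.3% ± 1.52 in cortex R6/2. Complete Map2 reads were few, 124 to 231 a group, and spread over 8 isoforms of at least 5% in some group. The largest were the retained intron ENSMUST00000128673 (6 exons, 3537 nt) with 8.87% to 18.0% of pooled complete reads and NIC isoforms of 9 exons and 2802 nt (6.34% to 13.7%) and of 7 exons and 2877 nt (6.06% to 15.3%). The others were the known ENSMUST00000137807 and ENSMUST00000145419, NIC isoforms of 6 exons (1695 nt) and 4 exons (2161 nt) and an NNC isoform of 8 exons (1877 nt). Annotated isoforms of Map2 with 15 exons were rarely read: ENSMUST00000114017 (15 exons, coding length 1494 nt) had 4 reads and ENSMUST00000114013 (15 exons, coding length 5484 nt) had 1. Map7d2 had 776 reads in all samples, spread over 127 isoforms, with 1 read of its known isoform of 17 exons (ENSMUST00000112471). Its complete reads were 19 to 26 a group, and each of the 15 isoforms that held at least 5% in some group had at most 5 reads there. At this depth differences in such forms were not detectable.

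Isoform usage, the share of each isoform within its gene, was not called for any of these genes with complete reads. In simulated data with 4-fold changes, the test recovered 21.2% of changed genes in the cortex, 27.8% in the striatum and 4.04% between regions. Where the changed isoform had at least 100 reads, these shares were 70%, 70.4% and 17.5%. The absence of calls thus does not show equal usage. In the cortex 0 of 4 genes with at least 2 isoforms of 10 reads were called, beside 0.359% of all genes (11 of 3060 by edgeR's diffSpliceDGE with Simes p-values) and 0.202% of all isoforms. In the striatum it was 0 of 5, beside 0.45% of genes and 0.286% of isoforms, and between regions in NT mice 0 of 5, beside 0.371% and 0.27%. By the gene-level F test it was also 0 in all 3 comparisons. An unadjusted p under 0.05 was reached by 1 of the 4 genes in the cortex, Stmn2 (edgeR adjusted p = 0.86), and by 1 of the 5 in the striatum, Map4 (edgeR adjusted p = 0.60), and by none between regions. Over all genes tested it was reached by 167 of 3060 in the cortex, 300 of 4443 in the striatum and 332 of 5653 between regions.

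With ISM isoforms added, 1 of 68 forms of these genes was called in the cortex, beside 0.068% of all forms, none of 77 in the striatum, and 3 of 118 between regions in NT mice, beside 0.597% of all. In the cortex, a Map4 form of 3 exons and 2312 nt that keeps the transcript end was lower in R6/2 mice (log2 change against the gene -1.84, edgeR diffSpliceDGE, adjusted p = 0.032). It held 6.49%, 14.3%, 11.3% and 5.43% of Map4 reads in NT and 1.87%, 0.935%, 1.29% and 1.87% in R6/2 cortices, with 36 and 7 reads. The groups did not overlap, but Map4 as a gene was not called. In the striatum the same form held 5.69% ± 3.92 (SD, n = 4) in NT and 3.44% ± 1.37 in R6/2 mice, with overlapping groups. A Map2 form of 2 exons and 5632 nt, at 16.9% ± 1.55 of gene reads in NT and 9.71% ± 0.719 in R6/2 cortices, did not pass (log2 change -0.56, edgeR adjusted p = 0.89). Between regions in NT mice, Stmn2 and Nefl were called as genes, 2 of 8 tested, beside 1.7% of all genes. The forms behind the calls were the 71 nt form of Stmn2 (log2 change -5.28, edgeR adjusted p = 5.6e-08) and a form of Nefl of 1 exon and 1788 nt (1.44, 6.9e-05). The Nefl form held 1.56% to 2.41% of gene reads in NT cortices. In NT striata it held 6.41% and 14.5% in the samples of 1 set but 2.01% and 0.801% in those of 2, so the groups overlapped and only the samples of 1 set were above the cortex. A Map2 form of 2 exons and 460 nt was also called (0.96, edgeR adjusted p = 0.029), with 7.45% to 18.4% of gene reads in NT cortices. It held 23.2% and 41.1% in the NT striata of 1 set, above every cortical sample, but 6.23% and 6.34% in those of 2 sets, below every cortical sample. Both calls are for the level of 1 set, at which the term for sets puts the striatum.

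Mean exons and mean isoform length per complete read were compared between genotypes. A gene was counted where the 4 R6/2 and the 4 NT samples did not overlap. This held for Nefh length in the cortex, 1 of 8 genes, beside 4.26% of all genes, 2.77% with lower values in R6/2 and the others with higher. Nefh length was 3970, 3979, 3994 and 3982 nt in NT and 3935, 3901, 3907 and 3943 nt in R6/2 mice (3981 ± 9.81 and 3922 ± 20.7 nt, SD, n = 4, two-sided exact permutation test, p = 0.029). Lengths are those of the isoforms to which reads were assigned, and the known Nefh isoform held 99.2% ± 0.564 and 97.2% ± 0.971 of these reads, so that the length rests on 3 and 6 other reads. The groups overlapped for exons in all 8 genes (3.85% of all genes had no overlap in the cortex, 3.38% in the striatum), for striatal length in all 8 (3.84%) and for the share of ISM reads in all 9 (2.89% and, in the striatum, 1.41%). Striatal Mapt had 10.2 ± 0.262 exons per complete read in NT and 10.4 ± 0.194 in R6/2 mice, and striatal Map2 had 6.43 ± 0.590 and 7.10 ± 0.350. For both, values were higher in R6/2 among samples of 1 set and among samples of 2 (exact permutation test within sets, p = 0.056, the smallest it can give, n = 4). Each such comparison sets 2 samples against 2. How many of all genes separate in this way was not counted, so these values are a description only.

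Of 51 other cytoskeletal genes, which code for tubulins, kinesins, further microtubule-associated proteins, kinases of tau, spectrins and actins, 44 were tested in the cortex, where 1 was lower and none higher by edgeR, beside 3.23% of all genes called, with 8 at an unadjusted p under 0.05. The share of all genes at such an unadjusted p is not given here. The median log2 fold change of the 44 was -0.09, beside 0.02 for all genes. The gene called was Stmn4, another stathmin, at 325 ± 54.7 CPM (SD, n = 4) in NT and 193 ± 33.0 CPM in R6/2 cortices (log2 fold change -0.74, edgeR adjusted p = 0.036). Next by p were Kif5c, a neuronal kinesin-1 (-0.55, edgeR adjusted p = 0.13), and Tubb2b (-0.81, 0.13). In the striatum 47 were tested, of which 4 were lower and 1 higher, beside 4.13% of all genes called, with a median of -0.16 beside 0.00 for all genes. Dclk1, a doublecortin-like kinase, fell from 203 ± 33.6 to 90.5 ± 8.55 CPM (log2 fold change -1.16, edgeR adjusted p = 0.0011), and Kif5c from 517 ± 88.2 to 275 ± 20.5 CPM (-0.91, 0.0076). Tuba4a (-0.79, edgeR adjusted p = 0.024) and Map1a (-0.88, 0.025) were also lower. Vim, an intermediate filament of glia and vessels, was higher, at 52.2 ± 7.84 and 96.3 ± 17.3 CPM (0.91, edgeR adjusted p = 0.019). Between regions in NT mice 19 of 47 were lower in the striatum and 1 higher, beside 32.6% of all genes called, led by Tubb2a (-1.81), Tubb4b (-1.67) and Kif5c (-1.64).

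Markers of cell types were counted beside these values. Over all genes tested, edgeR called 3.23% in the cortex (2.77% lower) and 4.13% in the striatum (3.64% lower). The share of all genes with an unadjusted p under 0.05 is not given here, so counts of markers at that p are a description only. Of 6 pan-neuronal genes, 5 were tested in the cortex, where edgeR called none (1 had an unadjusted p under 0.05) and their sum ranged from 1787 to 3606 CPM in NT and from 2375 to 2793 CPM in R6/2 mice. In the striatum 1 of 6 was lower and 4 had an unadjusted p under 0.05 (median log2 fold change -0.21), with sums of 2394 to 4557 and 2137 to 3001 CPM. Of 7 genes of striatal projection neurons, 6 were lower in R6/2 striata, and their summed level ranged from 4166 to 7890 CPM in NT and from 1106 to 2374 CPM in R6/2 mice. In the cortex 2 of these 7 were tested and 1 was lower, and the sum of the 7 was 209 to 302 CPM in NT and 63.0 to 84.1 CPM in R6/2 mice, with every R6/2 cortex below every NT cortex. Of 5 genes of cortical excitatory neurons 2 were tested in the cortex and none was called by edgeR or had an unadjusted p under 0.05 (median log2 fold change -0.34), with sums of 117 to 138 CPM in NT and 91.4 to 130 CPM in R6/2 cortices. Of oligodendrocyte genes, none of 6 was called in the cortex (3 had an unadjusted p under 0.05; sums of 3520 to 7104 and 3524 to 5555 CPM), and 1 of 6 was lower in the striatum (2 had an unadjusted p under 0.05), where their sum ranged from 12686 to 29929 CPM in NT and from 12769 to 19100 CPM in R6/2 mice. No microglial gene was called between genotypes. Of 6 astrocyte genes none was called in the cortex by edgeR, but 5 had an unadjusted p under 0.05, and their sum was 831 to 1171 CPM in NT and 601 to 719 CPM in R6/2 cortices. In the striatum none of the 6 was called (2 with an unadjusted p under 0.05), with sums of 398 to 1064 and 460 to 790 CPM. The sum of 3 choroid plexus genes ranged from 52.9 to 9175 CPM in NT and from 90.0 to 307 CPM in R6/2 striata, and in the cortex from 6.49 to 926 and from 20.1 to 1544 CPM. The part of these differences in the levels of the neurofilament genes was not tested.

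The genes most like a member in level were taken by the smaller of 2 Pearson correlations of log2 CPM, over the 8 cortical and over the 8 striatal samples, after removing the striatal mean of each number of sets, among 6352 genes. The points share libraries and depth and hold both genotypes, so the values are a description. Nefm was most like Gnb5 (cortex 0.972, striatum 0.969) and Penk (0.957, 0.974). Nefl was most like Pcyt2 (smaller value 0.930) and Ppp1r37 (0.888), Nefh like Ckmt1 (0.879) and Kctd1 (0.875), and Ina like Syn2 (0.812) and Ache (0.80). Among the others the nearest were Gm21811 (0.897) and Dcun1d4 (0.83) for Map2, Akr1a1 (0.884) and Cep57 (0.878) for Stmn2, Tmem18 (0.832) and Tmx4 (0.783) for Map4, Secisbp2l (0.786) and Kpna4 (0.784) for Map7d2, and Rnf4 (0.721) and Rab6b (0.714) for Mapt. Between members, the cortical value was 0.942 and the striatal 0.695 for Nefl and Nefm, and both were negative for Nefm and Stmn2 (-0.80 and -0.81).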

How the data were processed

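Total RNA had been treated with Terminator exonuclease, made into cDNA, and sequenced with PacBio Iso-seq. The authors kept full-length reads with poly(A) tails, mapped them to mm10 with minimap2 2.17-r941, ran TranscriptClean on the alignments and TALON with Ensembl annotation to name the isoform of each read. They deposited counts: the authors' tables hold whole numbers of reads per isoform, unfiltered and not normalized. Reads of the genomic, antisense and intergenic classes were left out of gene counts. The labels of 4 striatal samples say that their raw data hold a pair of replicates, and their 2 sets of counts were summed. Between 252885 and 1496196 reads per sample set the precision, and p-values measure the spread between samples. No samples of a group were identical, and 0 columns of other samples were present.

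Groups came from the sample labels. Gene counts went into edgeR 4.0.16 under R 4.3.3 (TMM, filterByExpr, quasi-likelihood, Benjamini-Hochberg adjustment over all genes tested, threshold 0.05), with the number of sets as a term where it varied. The SE is the absolute log2 fold change divided by the square root of F. Isoform usage and cassette exons were tested with diffSpliceDGE (at least 10 reads per isoform or form). Composition and read structure were compared by two-sided exact permutation tests over 70 arrangements. Read structure required at least 5 reads in every sample. CPM, computed here, are scaled by TMM over all 16 samples. Exons and sequences were taken from GENCODE M21, which held 37584 of 37726 known isoforms. Further sequences are not reported here. The fits were checked on simulated data with known changes, of which they recovered a smaller share between regions than between genotypes. Alternatives were upper quartile normalization, DESeq2 1.42.0, no filter, other read classes, stricter minimums, no term for sets, first set only, all samples in 1 fit, a replicate block, leaving out each sample and, chosen after seeing the data, fits within samples of 1 or 2 sets.

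Members and gene lists were chosen with earlier results of these data known. Named were isoforms with at least 5% of complete reads in a group or an adjusted p under 0.05, the 3 other cytoskeletal genes of smallest p in each comparison and the 2 genes most like a member (mean CPM of at least 20). Tuba4a and Map1a were named beyond this rule because so few were called, after their values were seen, as were Tubb2a, Tubb4b and Kif5c in the comparison between regions and ISM forms that were not called.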

Additional observations from a re-analysis of the deposited data

Results flagged for a closer look

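A replicate stood apart in 1 of 56 groups of 4 samples tested, fewer than chance gives at 1 in 20. It was Nefl in R6/2 cortex replicate 4, at 1990 CPM, while the other 3 samples lay between 1471 and 1553 CPM. Without that sample Nefl remained called lower in the cortex.

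The genotype difference in the make-up of neurofilament reads differed between regions, by 12.1 percentage points for Nefl and by -13.1 for Nefm, striatum minus cortex (two-sided exact permutation test over 4900 arrangements, p = 4.1e-04, n = 4 per group). All 4 striatal R6/2 samples showed the direction in both. The test of the difference between regions was chosen after the shares were seen, and its p is the smallest it can give. It took the samples as unpaired and did not account for the number of sets. The shares of Nefl and Nefm in a sample do not move independently. For the counts of the genes themselves the interaction of region and genotype was not called.

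Reads of the genomic class, which were left out of the gene counts, made up 0.832% ± 0.0811 of Nefl reads in R6/2 cortices and 0.368% ± 0.189 in NT cortices (SD, n = 4), with 30 and 17 reads. Every R6/2 sample was above every NT sample (two-sided exact permutation test, p = 0.029, the smallest it can give, unadjusted over the 18 gene and region pairs compared). The share of all genes without overlap in this measure was not counted, so this value cannot be set against a background. In the striatum the shares were 0.722% ± 0.641 and 0.674% ± 0.457.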

How the results depend on the processing

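The calls of Nefl, Nefm and Nefh in the cortex were made under all 15 alternatives. Of 222 log2 fold changes of the 9 genes under alternatives other than leaving out a sample, 189 kept their direction and their side of the threshold. In the cortex, 95 genes were called with ISM isoforms left out, in place of 198. Uncalled cortical values near 0 turned sign: Mapt to 0.070 with ISM left out, 0.013 without a filter and 0.014 with the genomic class, Map2 to 0.26, 0.059 and 0.068 in the same order and 0.041 with upper quartile normalization, and Map7d2 to 0.049 without a filter, 0.033 with upper quartile normalization and 0.0044 with DESeq2. In the striatum, 2 of the 9 genes and 637 genes in all were called without a filter, 2 and 510 with the genomic class, 0 and 39 without the term for sets, and 0 and 20 with the first set only. Within samples of 1 set 53 genes were called and within samples of 2 sets 34, with Nefm called in both (-1.48, adjusted p = 0.037, and -1.75, adjusted p = 0.048, edgeR), Mapt at 0.0074 and Map7d2 at -0.059 in the latter, and Ina at 0.12 in the former. With the first set only Map7d2 was at -0.028 and Ina at 0.037. Between regions 5 of the 9 genes were called with ISM isoforms left out, a setting whose number of all genes called is not given here. In another setting, without the term, 1103 genes in all were called between regions. In isoform usage, the F test called 28, 74 and 53 genes in the cortex, striatum and between regions. In the striatum 7 were called with known isoforms, 12 with ISM added, 3 without the term and 0 with the first set, and between regions 141 with ISM added, of 8283 tested, among them 2 of the 9 genes. Without the term 1 striatal cassette exon was called in place of 20. The cortical share of Nefl turned to -0.25 percentage points with ISM left out. With ISM added, exons in the cortex (Map7d2) and length in the striatum (Stmn2) each had 1 gene without overlap, beside 3.47% and 1.67% of all genes. The cause of these changes was not tested.

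Leaving out each sample in turn gave 3 of the 9 genes called in the cortex throughout and 1 to 2 in the striatum. Genes called ranged from 95 (without R6/2 3) to 300 (without NT 1) in the cortex and from 139 to 397 in the striatum. Log2 fold changes ranged from -0.15 to 0.15 for Mapt, from -0.054 to 0.063 for Map2 and from -0.14 to 0.14 for Map7d2 in the cortex, and from -0.024 to 0.077 for Map7d2 and from -0.15 to 0.034 for Ina in the striatum. Usage calls ranged from 1 to 15 genes in the cortex, 5 to 26 in the striatum and 12 to 32 between regions, and cassette calls from 2 to 8 and from 6 to 22 exons. The cortical shares ranged from -0.79 to 1.57 percentage points for Nefl, from -5.43 to -2.44 for Nefm and from 2.77 to 4.46 for Ina, and the striatal share of Ina from 3.38 to 4.67.

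Samples of the groups share replicate numbers, but same-numbered samples did not deviate together in every pair (NT and R6/2 in the cortex, r = -0.08 to 0.20, 2 of 4 over 0.1; in the striatum, r = -0.60 to 0.66, 2 of 4; cortex and striatum in NT, r = -0.24 to 0.26, 2 of 4, and in R6/2, r = -0.044 to 0.46, 3 of 4). Deviations were taken from the group mean, with the number of sets not removed. In the striatum, numbers 1 and 3 join samples of unlike set numbers (r = -0.60 and -0.41). Numbers 2 and 4 join samples of like set numbers (r = 0.48 and 0.66). Values that involve striatal samples thus cannot decide whether the numbers mark pairs. The number was not taken as a pairing in the main fits. With the replicate number as a block, 191 genes were called in the striatum, Nefm among them (-1.59, edgeR adjusted p = 0.0052), 5 of the 9 genes between regions (of those called otherwise, not Mapt at -0.67, edgeR adjusted p = 0.055, Map2 at -0.55, 0.089, or Map4 at -0.47, 0.20), and 7 and 8 genes in usage in the cortex and between regions. The number of all genes called between regions with the block is not given here. The block put Map2 at 0.0068 and Map7d2 at 0.023 in the cortex.

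Depth limited isoforms more than genes: Map7d2 had 19 to 26 complete reads a group and Map2 124 to 231.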
